A study of Mus musculus with 12 samples.

Results

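CTCF sites that lie in soft-masked sequence, where the genome file marks repeats in lower case, were described here and set against CTCF sites in unmasked sequence, in the brain, heart and lung of mouse embryos. A peak was counted as masked when the base at its summit was printed in lower case in the RefSeq copy of GRCm38, the assembly that mm10 also names, and the summit lay more than 1 kb from every annotated transcription start site. This mask may differ from the repeat mask distributed with mm10, and the counts of masked peaks hold for it alone. The rule took 24325 of the 145220 distal peaks listed over 6 lists, which held 183882 peaks in all. When overlapping regions of the 6 lists were merged, 10546 of 44017 distal sites were masked, out of 56248 merged sites, and 9914 of the masked sites held a core CTCF motif. At 4471 distal merged sites the summits of some lists were masked and those of others were not, and such a site was classed by its strongest summit.

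The lists came from CTCF ChIP-seq of E18.5 embryos on a C57BL/6 background (C57BL/6 N in the study's methods). Wild-type embryos (Ctcf+/+) were compared with embryos homozygous for the R567W change in Ctcf, which was made with CRISPR/Cas9, and equal amounts of human chromatin, from the embryonic kidney line HEK293T, were mixed into the samples. The labels gave 1 ChIP library and 1 input library per organ and genotype, or 12 samples in all, so no difference between genotypes has a replicate check. Homogenised tissue was used, so a peak bound in few cells and a peak bound weakly in many cells cannot be told apart, and the organ labels were taken as given because peak lists hold no expression markers. Distal peaks numbered 29389 in wild-type and 29377 in mutant brain, 17157 and 8912 in the heart, and 35155 and 25230 in the lung. The median number of fragments over a summit, recovered from the deposited values, lay between 29 and 55 over the 6 lists.

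CTCF is a zinc-finger protein that organises chromatin loops and domain boundaries. Its central fingers read a core motif, and its last fingers, among them the finger that carries R567, read an upstream motif found at a part of its sites. Interspersed repeats are copies of mobile elements, and certain short interspersed elements of rodents are known to carry CTCF motifs and to have spread them through the genome. Repeat families were not annotated in the genome used here, so masked sites are grouped below by their sequence alone and are given no family name.

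Part of the masked sites could be grouped by sequence, and members of the main groups are shown first. Masked merged sites with a core motif were grouped by the identity of the 40 bases on either side of the motif, with 60% of the 80 bases equal to those of a central member as the limit. Group 1 held 3112 sites, or 31.4% of the 9914, with a median identity of 83.8% to its centre. Group 2 held 1172 sites (11.8%, median identity 66.2%) and group 3 held 281 (2.83%, median identity 63.8%). The other 5349 sites (54.0%) joined none of these groups. With a limit of 70%, 2643 sites of group 1, 374 of group 2 and 0 of group 3 lay in the 3 largest groups, so groups 2 and 3 depended on the looser limit. The centres of groups 1 and 2 and a strong member of each are given from GRCm38, 5′ to 3′ along the strand of the motif, with the core motif in capitals and, where it was called, the upstream motif TGCAGTNCC (at most 2 mismatches, within 30 bases 5′ of the core) in capitals too. The centre of group 1 lay at chr8:109413780-109413878 on the plus strand in intergenic sequence, and its strong member at chr11:78453806-78453904 on the plus strand, also intergenic. The centre of group 2 lay at chr11:109441312-109441410 on the minus strand in an intron, and its strong member at chr8:121751576-121751674 on the minus strand in an intron, 21046 bp from the start site of Jph3, which encodes a junctophilin of neurons.
group 1 centre: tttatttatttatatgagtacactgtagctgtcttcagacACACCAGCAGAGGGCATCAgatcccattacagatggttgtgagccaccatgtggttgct
group 1 member 1: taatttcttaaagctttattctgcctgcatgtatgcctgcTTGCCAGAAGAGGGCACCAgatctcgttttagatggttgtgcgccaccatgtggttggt
group 2 centre: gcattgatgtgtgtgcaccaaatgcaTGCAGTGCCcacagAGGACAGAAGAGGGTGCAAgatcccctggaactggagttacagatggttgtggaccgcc
group 2 member 1: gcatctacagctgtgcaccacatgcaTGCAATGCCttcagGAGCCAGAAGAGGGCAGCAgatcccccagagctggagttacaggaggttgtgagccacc

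Both centres held the same run of 15 bases, ttacagatggttgtg, downstream of the core motif. It started 7 bases after the core in the centre of group 1 and 18 bases after it in the centre of group 2, a shift of 11 bases, while over the ungapped flanks the centres shared 33.8% of their bases. With at most 3 mismatches, the run stood at the first of these places in 90.8% of group 1 sites and in 0 of 1172 group 2 sites, and at the second in 47.0% of group 2 sites and in 0 of 3112 group 1 sites. The groups also differed in the upstream motif, which was called in 4.66% of group 1 sites, 93.3% of group 2 sites and 80.8% of group 3 sites, and in 43.8% of the masked sites in no group. Among the 960 group 2 sites with at most 1 mismatch, 99.8% had it 5 bases from the core. The flanks that formed the groups hold both the 15-base run and this motif and were compared without gaps, so their shares and places within a group were largely set by the grouping.

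The strongest masked sites found in every list and the strongest lost in every mutant list were also read. The first strong site, at chr2:32689543-32689591 on the plus strand in an intron, 1840 bp from the start site of Mir8093, and the third, at chr4:128711527-128711575 on the plus strand in an intron, 16027 bp from the start site of the Polycomb gene Phc2, are shown beside a pair of lost sites. Lost site 1 lay at chr15:103767001-103767049 on the plus strand, 11575 bp from the start site of Mucl1, and lost site 2 at chr6:133206375-133206423 on the minus strand, both in intergenic sequence. Capitals again mark the core motif and, in the third strong site, the upstream motif.
all-list site 1: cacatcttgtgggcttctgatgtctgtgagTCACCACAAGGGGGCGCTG
all-list site 3: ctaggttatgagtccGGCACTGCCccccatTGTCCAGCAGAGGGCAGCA
lost site 1: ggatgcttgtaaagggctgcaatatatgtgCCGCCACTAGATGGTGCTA
lost site 2: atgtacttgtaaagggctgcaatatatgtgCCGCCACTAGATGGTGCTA

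All-list site 1 had a fold enrichment of 76.9 in wild-type and 98.4 in mutant brain, 42.4 and 29.5 in the heart, and 19.5 and 202 in the lung. Fold enrichment is the ratio of the fragments at the summit to the local background, and the number of fragments in the lung was 540 in wild-type and 521 in mutant embryos. The height of the peak was thus close in both lung lists, and the background around it differed. Fragments at single sites, here and below, are not corrected for the depth of each list. All-list site 2, in an exon at chromosome 6, 146943 bp from the start site of Gm38811, had fold enrichments of 46.9 and 74.6 in the brain, 26.3 and 22.0 in the heart, and 19.6 and 92.1 in the lung. All-list site 3 had 54.3 and 74.2 in the brain, 19.2 and 21.7 in the heart, and 19.4 and 92.2 in the lung. Lung fragments went from 247 to 310 at site 2 and from 356 to 347 at site 3. All of these sites were strong in all 6 lists, and the masked run around each summit was short, at 21, 23 and 22 bases. The centre of the core motif lay outside that run in sites 1 and 2 and inside it in site 3.

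Lost site 1 had a fold enrichment of 38.5 in the brain, 11.3 in the heart and 16.9 in the lung of the wild type, and no peak in any mutant list. Lost site 2 had 34.4, 8.04 and 21.2, and lost site 3, in an intron at chromosome 3, had 19.3, 9.14 and 19.2, again with no peak in the mutant lists. The sequences of lost sites 1 and 2 were near copies, with 45 of the 49 printed bases and 60 of the 80 flanking bases equal. In each of the 3 lost sites the best match to the upstream motif had 3 mismatches, so none was called. After these values were seen, peaks of the same sequence were looked up with the 60% limit. Apart from the named pair, such peaks, masked or not, were kept in the mutant at 18 of 35 in the brain (51.4%), 4 of 26 in the heart (15.4%) and 14 of 37 in the lung (37.8%). The kept shares were 65.8%, 30.2% and 45.4% over all masked distal peaks, and 82.6%, 50.3% and 72.5% over all unmasked ones. Counted the other way, as peaks lost, the shares over all distal peaks were 20.4%, 51.6% and 33.2%. Of the 35 in the brain, 12 were masked and 0 had the upstream motif. The sequence was chosen for its loss, so these counts are a description only. Over all masked sites with a peak in every wild-type list, 91 of 1459 (6.24%) had no mutant peak in any organ, against 478 of 14609 unmasked sites (3.27%).

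CTCF summits lay in masked sequence less often than the bases around them. The masked share of distal summits was 17.8% in wild-type brain (5240 of 29389), 9.40% in the heart (1613 of 17157) and 21.2% in the lung (7449 of 35155). Positions 2 kb to either side of the same summits were masked at 26.4%, 26% and 26.6%, and 36.4% of all bases of the genome were masked. Summits minus flanks came to −8.59 percentage points in the brain (95% interval −9.15 to −8.02), −16.6 in the heart (−17.2 to −16) and −5.42 in the lung (−5.96 to −4.89). The mean over organs was −10.2 ± 5.77 percentage points (SD, n = 3 organs; exact two-sided sign-flip permutation test, p = 0.25, the smallest p that 3 organs allow). These intervals and all others below (Wilson for a share, Newcombe for a difference) cover counting error only. Reads that map to several copies of a repeat were discarded by the authors, so few bound copies and few mappable copies cannot be told apart.

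**Figure D1:**
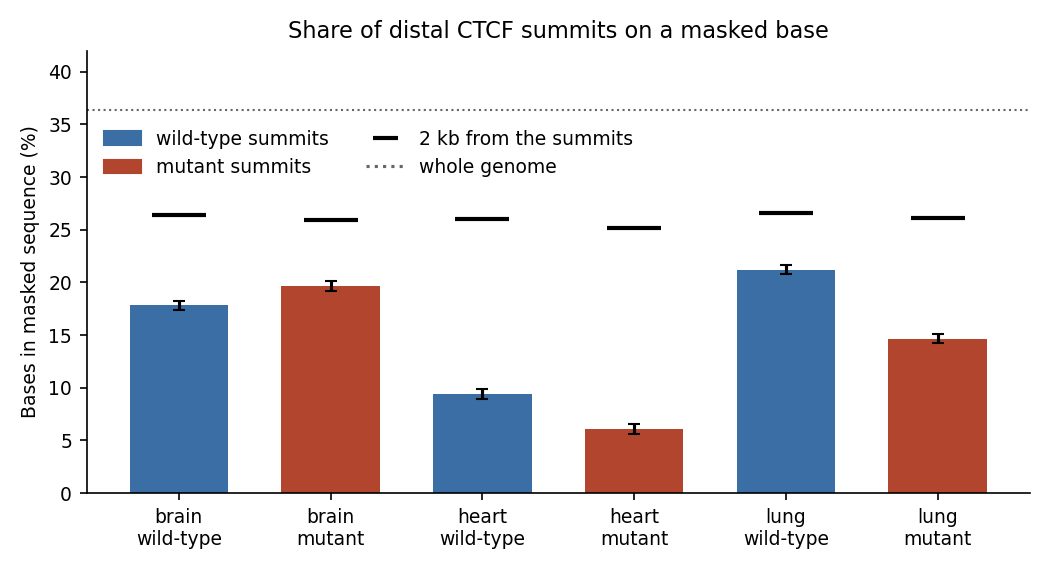
Share of distal CTCF summits on a masked base (%, y axis) in each of the 6 lists (x axis), with 95% Wilson intervals, beside the share 2 kb from the same summits (black dashes) and over the genome (dotted line). All 6 lists lie below both references, heart lowest, and the mutant bar is higher than the wild-type bar in the brain and lower in the heart and lung.

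Masked peaks were weaker than unmasked ones in every wild-type list. Their median fold enrichment was 7.77 against 15.6 in the brain, 7.68 against 10.0 in the heart and 8.99 against 13 in the lung, and the median fragments at the summit were 22 against 49, 22 against 30, and 30 against 76. Masked peaks did not lack the core motif more often. A match within 100 bp of the summit was found in 95.2% of masked and 90.1% of unmasked peaks in the brain, 95.2% and 93.3% in the heart, and 95.7% and 88.2% in the lung, with a mean difference of 4.87 ± 2.80 percentage points (SD, n = 3 organs; exact two-sided sign-flip permutation test, p = 0.25). With the core motif called at p of 1e-05 the differences were 10.9 in the brain, 4.13 in the heart and 14.1 in the lung, with a mean of 9.73. At 2 kb from the masked summits the core motif was found in 5.95% to 6.79% of windows. Fewer masked core motifs held a CpG, the dinucleotide that DNA methylation marks, at 31.9% against 41.3% in the brain, 30.8% against 43.1% in the heart and 30.6% against 40.8% in the lung. Masked peaks lay in introns more often, at 58.1% against 49.5% in the brain, 53.1% against 48.5% in the heart and 59.5% against 49.9% in the lung. Close to start sites, which the rule leaves out, 5.92% to 8.16% of wild-type summits were masked.

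The mask around a summit was often a fragment. In wild-type brain the median masked run was 63 bases long, 62.2% of runs were under 100 bases and 1.89% were 500 bases or longer. Group 1 was the exception, with a median run of 208 bases, against 67 bases in group 2. In the same list 216 peaks with the sequence of group 2 were unmasked, or 24.6% of all 877 of that sequence, against 27 of 1159 (2.33%) for group 1. Membership of the masked class thus missed more of group 2 than of group 1.

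Masked peaks were lost from the mutant lists more often than unmasked peaks in all 3 organs. A wild-type peak was counted as lost when no mutant peak of the same organ overlapped it by 1 bp or more. In brain 1793 of 5240 masked peaks were lost (34.2%), against 20.4% of all distal peaks and 17.4% of unmasked peaks. In heart 1126 of 1613 were lost (69.8%), against 51.6% of all distal peaks and 49.7% of unmasked ones, and in the lung 4064 of 7449 (54.6%), against 33.2% and 27.5%. The retained share of masked minus unmasked peaks was −16.8 percentage points in the brain (65.8% against 82.6%, 95% interval −18.2 to −15.4), −20.1 in the heart (−22.5 to −17.7) and −27.1 in the lung (−28.3 to −25.8). The mean over organs was −21.3 ± 5.26 percentage points (SD, n = 3 organs; exact two-sided sign-flip permutation test, p = 0.25). It was −36.2 when masked meant at least 80% of the bases within 50 bp of the summit and unmasked at most 20%, which left out the peaks between, and this alternative is meant wherever the 80% limit is named. With the 2 lists of an organ cut to equal length it was −17.9 in the brain, −9.16 in the heart and −18.4 in the lung, with a mean of −15.1.

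Most of this difference went with peak strength. Within deciles of wild-type fold enrichment, weighted by the masked peaks in each, the retained share of masked peaks differed from that of unmasked peaks by −1.28 percentage points in the brain (95% interval −2.70 to 0.136), −7.89 in the heart (−9.94 to −5.84) and −10.4 in the lung (−11.5 to −9.19). In brain the interval included 0, but the value was −3.25 with core motif peaks only and −4.55 when masked meant a masked core motif centre, an alternative added after seeing the data. The heart value was −16.2 when masked meant at least 80% of the bases within 50 bp of the summit. The mean was −6.51 ± 4.70 percentage points (SD, n = 3 organs; exact two-sided sign-flip permutation test, p = 0.25). It was −10.5 at the 80% limit and −11.0 when masked meant a masked core motif centre. In the lowest decile of brain, where 40.4% of the peaks were masked, 41.1% of masked and 45.5% of unmasked peaks were kept, and in the highest, where 5.34% were masked, 98.7% and 99.6% were kept. In lung the gap was widest in the middle deciles, and in the sixth 65.9% of masked and 84.5% of unmasked peaks were kept. In wild-type lung the background around unmasked peaks was raised to a median of 2.89 times the lowest level in the list, against 1.53 times around masked peaks, so that equal fold enrichment meant more fragments at unmasked peaks there. With deciles of the number of fragments the difference was 0.328 in the brain, −5.41 in the heart and −3.97 in the lung, with a mean of −3.01.

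**Figure D2:**
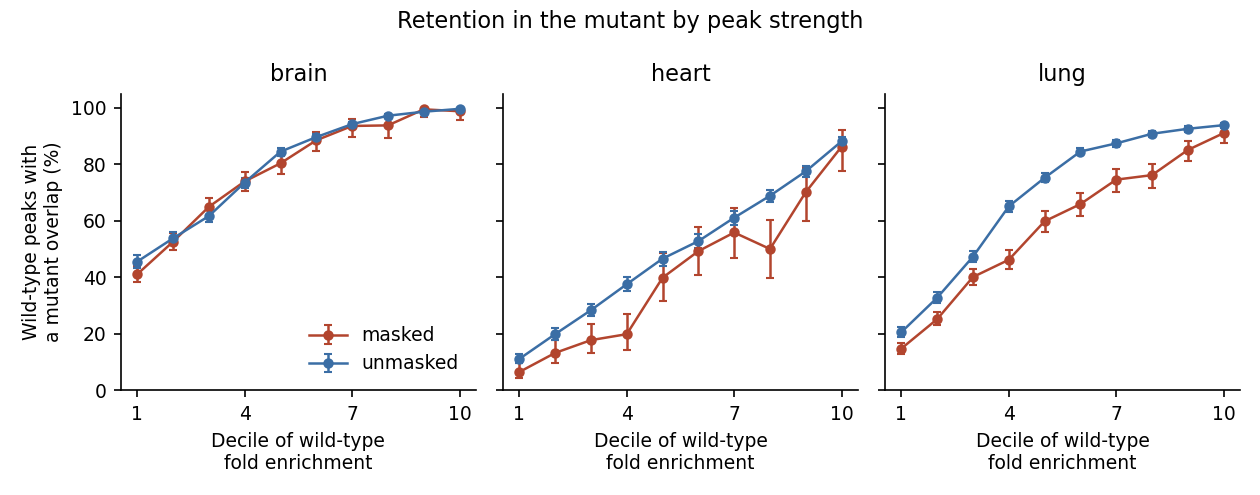
Share of wild-type distal peaks overlapped by a mutant peak of the same organ (%, y axis) by decile of wild-type fold enrichment (x axis, 1 weakest), for masked (red) and unmasked (blue) peaks, with 95% Wilson intervals. The curves run together in the brain, and the masked curve lies below the unmasked one through most of heart and lung.

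Peaks present in both genotypes were compared by the number of fragments. The log2 of mutant over wild-type fragments, each over the lowest background of its list, had a median of −0.19 at 3447 masked and −0.12 at 19937 unmasked brain peaks, −0.25 at 487 and −0.29 at 7822 heart peaks, and −0.64 at 3385 and −0.40 at 20093 lung peaks. Masked minus unmasked medians were −0.068 in the brain (95% interval −0.12 to −0.041), 0.033 in the heart (−0.038 to 0.089) and −0.24 in the lung (−0.28 to −0.21), on the log2 scale. The mean of −0.091 ± 0.14 was smaller than the spread between organs (SD, n = 3 organs; exact two-sided sign-flip permutation test, p = 0.50). The ratios carry no spike-in correction, so only the difference between the classes of a list can be read. Peaks lost from the mutant list have no ratio, and more masked than unmasked peaks were left out in this way. Within deciles of the wild-type fragments, an alternative added after seeing the data, the differences were −0.16 in the brain, 0.00037 in the heart and −0.29 in the lung, with a mean of −0.15. The heart value turned negative, at −0.05 and −0.23, when masked meant at least 80% of the bases within 50 bp of the summit or a masked run of at least 100 bases.

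The sequence groups were kept to different extents. In brain 56.5% of 1132 group 1 peaks, 65.4% of 661 group 2 peaks and 53.7% of 136 group 3 peaks had a mutant overlap, against 71.1% of 3061 masked core motif peaks in no group and 85.3% of unmasked peaks with a core motif. In heart the shares were 12.4% of 129, 10.7% of 121, 15.4% of 26 and 35.6% of 1260, against 52.7%, and in the lung 28.9% of 1629, 38.4% of 986, 44.8% of 210 and 54.7% of 4304, against 76.9%. Members of groups 1 and 2 were thus lost more often than masked peaks in no group in all 3 organs. Among masked peaks with a core motif, group 1 peaks were also the weakest. Their median fold enrichment was 5.65 in the brain, 5.85 in the heart and 6.73 in the lung, against 9.31, 8.08 and 10.3 in those of no group. The values at equal fold enrichment were taken against all unmasked peaks, including those without a core motif. Unmasked peaks without one were kept at 57.2% in the brain, 17.6% in the heart and 40.2% in the lung, which lowers that reference. At equal fold enrichment group 1 differed from all unmasked peaks by 0.836 percentage points in the brain (95% interval −2.13 to 3.8), −14.1 in the heart (−19.3 to −8.95) and −12.8 in the lung (−15.0 to −10.6). Group 2 differed from them by −0.680 in the brain (−4.22 to 2.86), −22.6 in the heart (−27.5 to −17.8) and −16.1 in the lung (−19.0 to −13.1).

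**Figure D3:**
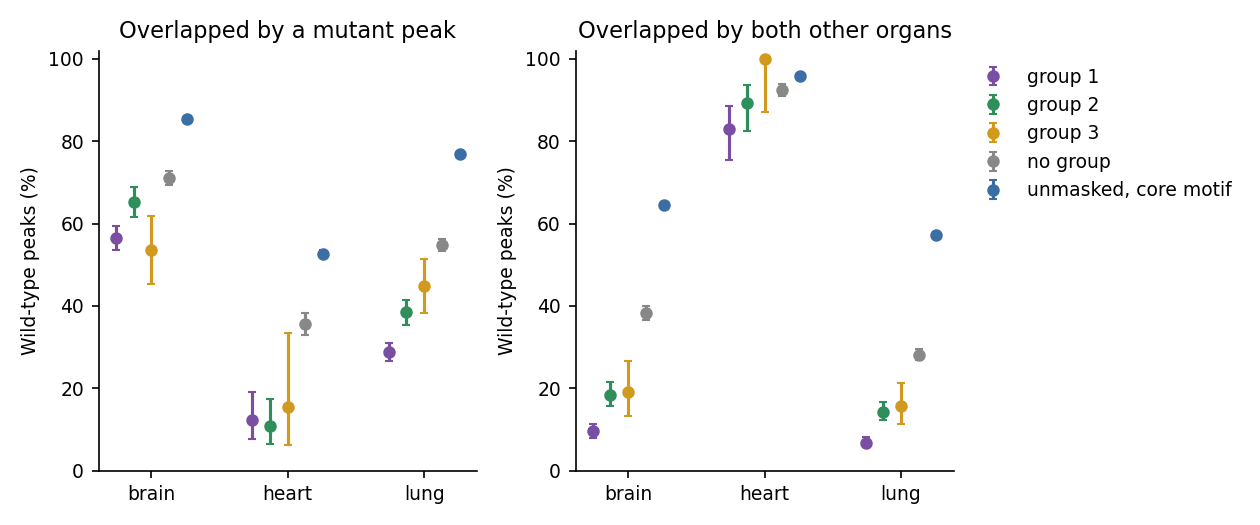
Wild-type masked peaks of each sequence group, and unmasked peaks with a core motif, by organ (x axis): the share (%) overlapped by a mutant peak of the same organ (left) and by wild-type peaks of both other organs (right), with 95% Wilson intervals. Groups 1 and 2 lie below the masked peaks in no group in every organ, and the unmasked peaks lie highest except on the right in the heart, where group 3 has 26 of 26.

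Within a group, kept peaks were stronger and had better core motifs. Kept group 2 peaks in the brain had a median fold enrichment of 8.51 and a median core score of 16.8 log2 units, against 6.45 and 15.8 in lost ones. In lung, kept and lost group 1 peaks had medians of 9.29 and 5.94 in fold enrichment and 17.4 and 14.6 in core score. Heart group 2 was an exception in core score, with 16.4 in the 13 kept and 16.6 in the 108 lost peaks. Peaks whose summit was masked but whose core motif centre lay in unmasked sequence were kept more often than those with the motif itself masked. The motif-masked peaks differed from them by −10.9 percentage points in the brain (65.1% against 76.0%), −15.4 in the heart (25.9% against 41.3%) and −18.6 in the lung (44.6% against 63.2%). Peaks in masked runs of at least 100 bases were kept at 58.7% in the brain, 11.7% in the heart and 32.9% in the lung, against 70.1%, 35.0% and 53.4% in shorter runs. Peaks in the longer runs were also weaker, with median fold enrichments of 6.29 against 9.25, 6.22 against 8.16, and 7.27 against 10.3. At equal fold enrichment peaks in longer runs differed from unmasked peaks in retention by −0.033 percentage points in the brain, −15.3 in the heart and −13.1 in the lung.

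Named members of the groups showed both outcomes. The centre of group 1 was a weak site, listed in brain alone with a fold enrichment of 5.27 (wild type) and 5.16 (mutant). Group 1 member 1 had 63.8 in wild-type and 16.9 in mutant brain, 20.8 in wild-type heart with no mutant peak, and 28.4 and 37.1 in the lung. In lung its fragments fell from 352 to 95 while the fold enrichment rose, since the wild-type background was higher. Group 1 member 2, in an intron 10559 bp from the start site of Gm42672, was kept in every organ, with 27.0 and 25.9 in the brain, 13.9 and 8.21 in the heart, and 22.6 and 30.5 in the lung. Its fragments moved the other way in the brain, from 72 to 88, and were also fewer in the mutant lung list than in the wild-type one, which had 127.

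Both named strong members of group 2 were lost from the heart list only. Group 2 member 1 had a fold enrichment of 29.9 and 21.2 in wild-type and mutant brain, 16.8 in wild-type heart with no mutant peak, and 25 and 13.2 in the lung. Group 2 member 2 was the masked wild-type-only peak of highest fold enrichment in the heart. It had 25.2 there, against 22.3 and 8.94 in the brain and 26.8 and 25.2 in the lung, where its fragments fell from 353 to 60. The centre of group 2 had 11.6 in the brain and 5.12 in the heart of the wild type with no mutant peak in either, and 20.6 and 9.90 in the lung. In group 3, member 1, in an intron, had 20.3 and 14.2 in the brain, 12.8 and 7.4 in the heart, and 17 and 31.3 in the lung, where its fragments fell from 148 to 80. Member 2 of that group, 6123 bp from the start site of Mbd4, a DNA repair glycosylase, had 14.8 and 8.96 in the brain, 12.4 in wild-type heart alone, and 20.4 and 16 in the lung. The group 3 centre was listed in mutant brain alone, at 3.97.

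The upstream motif was more common in masked than in unmasked peaks. Among core motif peaks of the wild type it was called in 45.2% of masked and 25.7% of unmasked peaks in the brain, 41.7% and 26.2% in the heart, and 44.9% and 24.8% in the lung. The mean difference was 18.4 ± 2.52 percentage points (SD, n = 3 organs; exact two-sided sign-flip permutation test, p = 0.25). In a mirrored window on the other side of the core, used as background, the shares were 17.4% and 12.5% in the brain, 14.3% and 12.7% in the heart, and 16.9% and 12.8% in the lung. Where masked peaks matched with at most 1 mismatch, the motif stood 5 bases from the core in 94.3%, 89.9% and 93.6% of them, against 68.3%, 63.6% and 67.3% in unmasked peaks.

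Masked peaks with the upstream motif were kept less often than those with the core alone in the heart, and in all 3 organs at equal fold enrichment. The unadjusted difference was −1.02 percentage points in the brain (66.0% against 67.0%, 95% interval −3.65 to 1.61), −15.8 in the heart (22.2% against 37.9%, −20.2 to −11.2) and −0.919 in the lung (45.8% against 46.7%, −3.24 to 1.41). In brain and lung the intervals included 0. With −log10 q of at least 5 the values there were −5.24 and −3.22. With the core motif called at p of 1e-05 they were 1.05 and 1.28. At equal fold enrichment, an alternative added after seeing the data, the differences were −5.86 (−8.28 to −3.44), −16.3 (−20.2 to −12.5) and −3.74 (−5.89 to −1.60). The unadjusted mean of −5.90 ± 8.54 percentage points was smaller than the spread between organs (SD, n = 3 organs; exact two-sided sign-flip permutation test, p = 0.25), and it came to −0.968 without heart. When masked meant at least 80% of the bases within 50 bp of the summit, the unadjusted differences were 2.70 in the brain, −3.06 in the heart and 4.55 in the lung, with a mean of 1.39, so the heart difference was much smaller under that definition. For unmasked peaks the difference was −4.80 in the brain, −7.38 in the heart and −5.40 in the lung, and −5.00, −10.5 and −3.14 at equal fold enrichment. Group 1 peaks, which rarely carried the upstream motif, were often lost. Outside group 1, a split chosen after the values were seen, the difference was −6.62 in the brain (−9.50 to −3.70), −18.8 in the heart (−23.5 to −14.0) and −11.6 in the lung (−14.2 to −8.95), and −4.24, −18.0 and −6.55 at equal fold enrichment. In the mirrored window the masked differences were −1.19, 1.04 and −0.661, each with an interval that included 0.

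Where masked peaks were kept, those with the upstream motif also had lower ratios of mutant over wild-type fragments. Peaks not called in the mutant have no ratio, and the share left out differed. In the heart 142 of 640 masked peaks with the upstream motif and 340 of 896 with the core alone were kept. The median log2 of mutant over wild-type fragments was −0.34 with the upstream motif and −0.09 with the core alone in the brain, −0.43 and −0.19 in the heart, and −0.84 and −0.47 in the lung. Unmasked peaks gave −0.32 and −0.05, −0.36 and −0.26, and −0.63 and −0.32. Both classes moved in the same direction in all 3 organs. The quartiles overlapped, and in masked brain peaks they ran from −0.74 to 0.04 with the upstream motif and from −0.49 to 0.28 without it. Retained group 1 peaks, which rarely carried the upstream motif, had medians of −0.08 in the brain and −0.68 in the lung, and group 2 peaks had −0.33 and −0.78. In the heart the order was the other way, with −0.53 at 16 group 1 and −0.43 at 13 group 2 peaks.

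Mutant lists held masked peaks of their own, and group 1 was more common among these than among masked peaks with a wild-type overlap. In brain 2390 of 5780 masked mutant peaks (41.3%) had no wild-type overlap, against 21.0% of all distal mutant peaks and 16% of unmasked ones. In heart 70 of 540 (13%) had none, against 6.47% of all and 6.06% of unmasked peaks, and in the lung 507 of 3703 (13.7%), against 7.31% and 6.22%. Of the 2390 in the brain, 1148 (48.0%) belonged to group 1, which made up 18.8% of the masked brain mutant peaks with a wild-type overlap. In mutant heart group 1 made up 8 of 70 masked peaks without an overlap, against 16 of 470 with one. In mutant lung it made up 152 of 507, against 456 of 3196. Wild-type lists showed the same order between masked peaks without and with a mutant overlap, so it was not particular to mutant brain. Group 1 shares there were 27.4% against 18.6% in the brain, 10.04% against 3.29% in the heart and 28.5% against 13.9% in the lung. Group 1 peaks of mutant brain were weak, with a median of 15 fragments over all 1784 of them, with or without an overlap. At equal fold enrichment the masked minus unmasked difference in the share without a wild-type overlap was 6.52 percentage points in the brain (95% interval 5.21 to 7.82), 4.14 in the heart (1.38 to 6.90) and −0.909 in the lung (−2.11 to 0.287).

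The masked share of a list moved in opposite directions with genotype. It went from 17.8% to 19.7% in the brain, a change of 1.85 percentage points (95% interval 1.21 to 2.48), and went from 9.40% to 6.06% in the heart, a change of −3.34 (−3.99 to −2.67), and from 21.2% to 14.7% in the lung, a change of −6.51 (−7.12 to −5.90). The mean was −2.67 ± 4.22 percentage points (SD, n = 3 organs; exact two-sided sign-flip permutation test, p = 0.50). At the 80% limit the changes were 3.21 in the brain, −1.92 in the heart and −5.41 in the lung, with a mean of −1.37. With masked runs of at least 100 bases, added after seeing the data, they were 2.70, −1.34 and −4.28, with a mean of −0.975. Group 1 went from 21.6% to 30.9% of masked peaks in the brain, from 8% to 4.44% in the heart and from 21.9% to 16.4% in the lung. Outside group 1 the brain change was −0.0458 percentage points (−0.631 to 0.539), while heart and lung kept changes of −2.91 and −4.80.

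**Figure D4:**
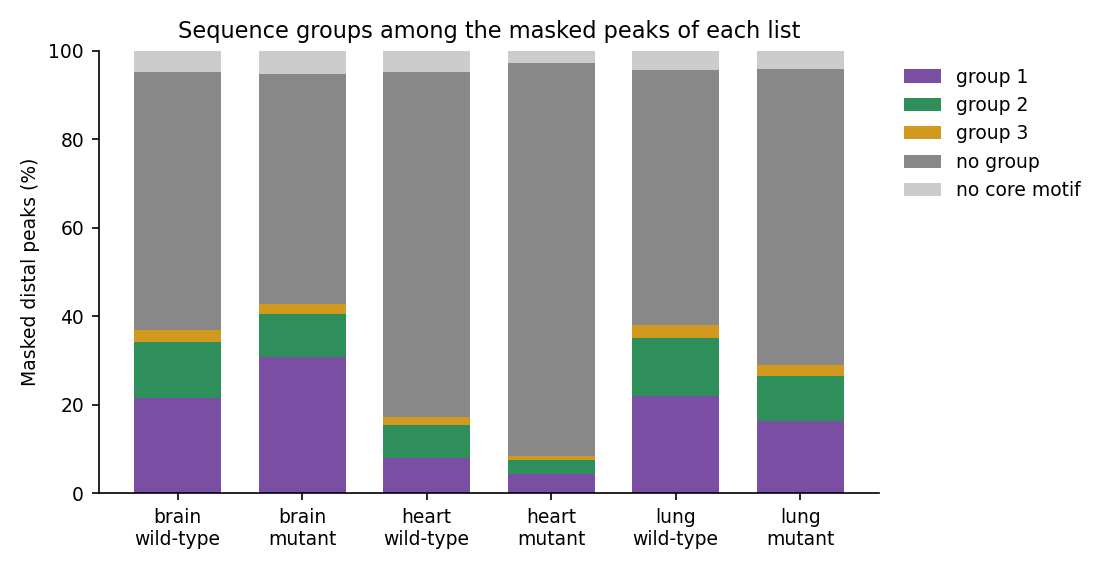
Make-up of the masked distal peaks of each list (stacked shares in %, y axis) by sequence group (colours), for wild type and mutant of each organ (x axis). Group 1 takes 30.9% of masked peaks in mutant brain against 21.6% in the wild type, and 4.44% in mutant heart.

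The strongest masked peak found in the mutant list alone was read in each organ. The brain peak lay in an intron 4220 bp from the start site of Mfng, which encodes a glycosyltransferase acting on Notch, at chr15:78769237-78769285 on the minus strand. Its upstream motif matched all the letters of TGCAGTNCC, 5 bases from the core, and it is shown for that reason, with both motifs in capitals.
brain mutant-only peak: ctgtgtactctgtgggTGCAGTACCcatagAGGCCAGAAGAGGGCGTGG

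This peak had a fold enrichment of 17.9 in mutant brain, none in wild-type brain or in the heart, and 4.72 and 8.66 in wild-type and mutant lung, from 27 and 20 fragments. The heart peak, in an intron 52983 bp from the start site of Gm5780, had 13 in mutant heart and none in wild-type heart, with 31.4 and 48.0 in the brain and 15.1 and 36.3 in the lung, from 100 and 87 fragments. The lung peak, 2544 bp from the start site of Ankrd52, had 26.4 in mutant lung and 8.69 in mutant brain, and none in any wild-type list. The masked wild-type-only peak of highest fold enrichment was lost site 1 in the brain, group 2 member 2 in the heart and, in the lung, a group 2 site 13220 bp from the start site of Gm21461. That site had 28.2 in wild-type lung with no mutant peak, 21.5 and 11.9 in the brain, and none in the heart. Apart from lost site 1 and the lung mutant-only peak, each of these sites was found in both genotypes of another organ.

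Masked peaks were shared between organs less than unmasked peaks. In brain 27.9% of masked wild-type peaks were overlapped by wild-type peaks of both other organs, against 55.2% of all distal and 61.1% of unmasked peaks. In lung the share was 20.5% against 46.2% and 53.1%, and in the heart, the shortest list, 90.0% against 94.1% and 94.5%. Masked minus unmasked came to −33.2 percentage points in the brain (95% interval −34.5 to −31.8), −4.47 in the heart (−6.07 to −3.05) and −32.6 in the lung (−33.7 to −31.5). The mean was −23.4 ± 16.4 percentage points (SD, n = 3 organs; exact two-sided sign-flip permutation test, p = 0.25). Overlap in all organs was counted from each list in turn, at 1463, 1452 and 1525 masked peaks in the brain, heart and lung. The organ values thus rest on largely the same sites, and the SD and p do not measure replication, here or at equal fold enrichment. When masked meant at least 80% of the bases within 50 bp of the summit, the differences were −51.2, −9.37 and −47.3, with a mean of −36.0. At equal fold enrichment the differences were −7.46 in the brain (−8.57 to −6.36), 0.375 in the heart (−1.11 to 1.86) and −13.5 in the lung (−14.4 to −12.6), with a mean of −6.86 ± 6.95 (SD, n = 3 organs; exact two-sided sign-flip permutation test, p = 0.50). Within deciles of the number of fragments they were −5.64, 0.922 and −3.63. With the 3 wild-type lists cut to equal length, the differences were −15.3 in the brain, −20.0 in the heart and −20.2 in the lung, and −6.70, −6.49 and −20.2 at equal fold enrichment.

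The organ missing from a masked brain or lung peak was mostly heart. The wild-type heart list was the shortest, and heart was also missing most often from unmasked peaks. Lung peaks overlapped 75.2% of masked brain peaks and heart peaks overlapped 28.2%, against 88.8% and 61.5% of unmasked brain peaks. Brain peaks overlapped 55.4% of masked lung peaks and heart peaks 21.9%, against 76.9% and 55.1% of unmasked ones. The reverse held from heart, where 90.8% of masked peaks met a brain peak and 96.6% a lung peak. Peaks with no wild-type overlap in another organ made up 24.5% of masked and 10.8% of unmasked brain peaks, 43.2% and 21.1% of lung peaks, and 2.60% and 1.27% of heart peaks. Before strength was taken into account, group 1 was shared least in the brain and lung. Of its peaks, 9.54% in the brain and 6.81% in the lung were overlapped in both other organs, and 45.1% and 61.0% had no overlap in either. At equal fold enrichment, sharing of group 1 with both other organs differed from that of unmasked peaks by −10.1 percentage points in the brain and −12.8 in the lung. For group 2 the differences were −14.1 and −17.2. Heart differences were −0.589 for group 1 (interval −6.57 to 5.39) and 1.48 for group 2 (interval −3.70 to 6.65). The heart intervals covered both signs, so lower sharing of these groups was not shown there. The groups differed in strength, so these values do not rank them, and the difference between these groups was not tested.

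Over merged sites, 3176 of 10546 masked sites (30.1%) were found in wild-type lung and in no other wild-type organ, 1282 (12.2%) in the brain alone and 44 (0.417%) in the heart alone, against 17.4%, 7.60% and 0.577% of unmasked sites. Brain and lung together, without heart, held 2539 (24.1%), against 19.6% of unmasked sites, and all 3 organs held 1459 (13.8%), against 43.6%. Sites in all 6 lists numbered 447 (4.24%) among masked and 7695 (23.0%) among unmasked sites, and sites in 1 list alone were 43.8% and 22.9%. By group, sites in all 3 wild-type organs were 3.5% of group 1, 10.4% of group 2, 9.96% of group 3 and 21.9% of the sites in no group. Between mutant lists, masked peaks overlapped in both other organs were 8.22% in the brain, 95.6% in the heart and 12.9% in the lung, against 34.8%, 98.2% and 38.3% of unmasked peaks.

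Most copies of the masked core motif in the genome had no peak. Of 210213 masked distal matches to the core motif, 9758 (4.64%, 95% Wilson interval 4.55 to 4.73) had a wild-type summit within 100 bp, against 28926 of 272315 unmasked matches (10.6%). Both classes were occupied more often at higher motif scores, given as log2 odds. Occupied shares were 8.59% masked and 28.3% unmasked at scores of 13 to 16, 27.7% and 67.9% at 16 to 19, and 51.4% and 90.2% at 19 and over. Masked matches with the group 1 sequence numbered 57488, of which 3.96% were occupied, while 24.4% of the 5075 matches with the group 2 sequence were. The groups were formed from sites with a peak, and copies were matched to centres drawn from those sites. The occupied shares of the groups were thus partly set by that choice, also where they are set beside unmasked matches. At scores of 13 to 16, 5% of group 1 and 30.5% of group 2 copies had a summit, so group 2 was near the unmasked share there. At scores of 10 to 13 group 2 stood at 11.9%, above the unmasked share of 7.12%, and at 19 and over the groups stood at 56.9% and 59.6%.

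**Figure D5:**
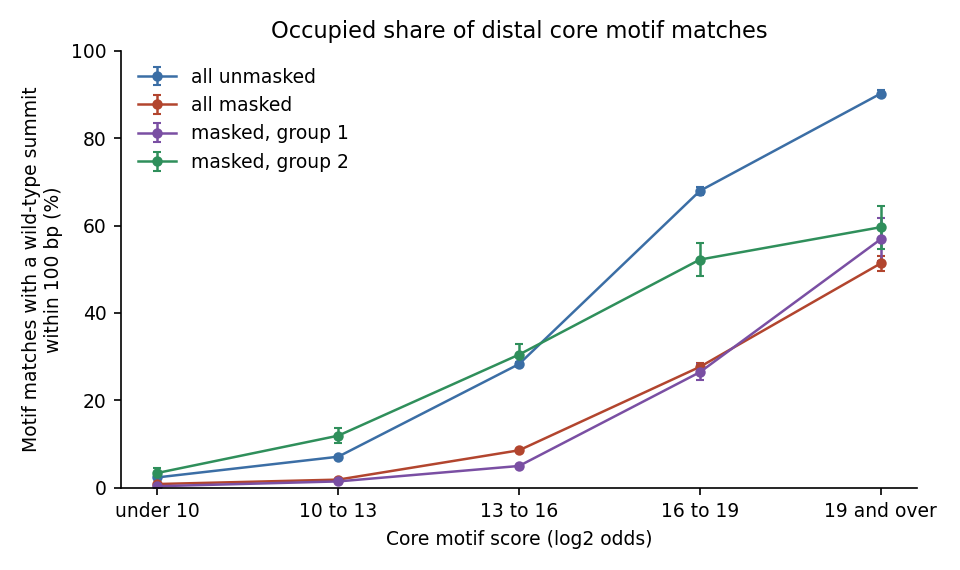
Share of distal core motif matches of the genome with a wild-type summit of any organ within 100 bp (%, y axis) by motif score (x axis, log2 odds), for unmasked and masked matches and for masked matches with the sequence of groups 1 and 2, with 95% Wilson intervals. Masked matches lie below unmasked ones in every bin, and group 2 lies above the unmasked curve at scores of 10 to 13, near it at 13 to 16 and below it at higher scores.

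Occupied copies differed from unoccupied ones in their motifs. The centres were sites with a peak, and the flanks compared with them hold the upstream motif. Differences in this motif and in identity to the centre were therefore partly set by the grouping. Occupied group 2 copies had a median core score of 15.8 against 11.6, carried the upstream motif in 93.4% against 52.9%, and held a CpG in the core in 32.8% against 15.2%. Occupied group 1 copies had a core score of 14.4 against 12.3 and a core CpG in 36.8% against 21%, while the upstream motif was rare in both, at 5.41% and 2.57%. The median identity to the group centre was 82.5% in occupied and 85.0% in unoccupied group 1 copies. The quartiles overlapped, from 67.5% to 87.5% in occupied and from 80% to 87.5% in unoccupied copies. Group 2 went the other way, with medians of 66.2% and 63.8%, and group 3 had 63.8% in both. Whether closer copies of group 1 had fewer peaks because their reads mapped to several places was not tested.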

How the data were processed

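CTCF ChIP-seq peak lists of 6 libraries were analysed, and the 6 input libraries were not analysed here. The authors removed adapters (Trim Galore), mapped reads to mm10 and hg38 jointly (Bowtie2), retained only unique alignments of high quality and ran MACS2 on each library separately, so the deposited lists carry no spike-in correction. Unique mapping lowers the reads available in recent repeats. Which input served as control was not given in the sources used here. Fold enrichment, as deposited, is the authors' ratio of summit pileup over local background, with 1 added to both. Deposited p-values and q-values are on the −log10 scale. Fold enrichment and p were solved together for a whole-number pileup, which solved 100% of lines in each list. The authors' summit offset placed the summit, and of several lines for a region only the line of highest fold enrichment was used.

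The mask was the lower case of the RefSeq copy of GRCm38 (patch 6). The masking program was not given in the sources used here. Start sites and genes were those of GENCODE M21. Overlap meant at least 1 bp. A 19-column core motif matrix was learned from 1947 of the 2000 strongest wild-type brain peaks, and matches were called at p of 1e-04 on both strands. The upstream motif allowed 2 mismatches within 30 bases, on the strand of the core motif. Intervals are 95% (from order statistics for medians, and normal for differences within deciles), and tests over organs are exact two-sided sign-flip permutation tests, since with 1 library per group no test between genotypes of an organ was made.

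Named sites were the 3 masked sites strongest by rank in all 6 lists, the 3 strongest in all wild-type lists with no mutant peak, the centre and 2 strong members of each group, and the strongest masked peak without an overlap in each list. None lay on chromosome 18, which was skipped. The members, motifs and lists were chosen with earlier results of these data known. Alternatives were stricter q (−log10 q of at least 5), a 2 kb limit, masked by at least 80% of the bases within 50 bp of the summit and unmasked by at most 20%, autosomes only, summits within 100 bp, lists of equal length, core motif peaks only, deciles of pileup, stricter motif calls, flanks at 10 kb and 70% identity. The methods were tested on simulated data. Software was Python 3.11.15 with matplotlib 3.10.9, numba 0.67.0, numpy 2.4.6, pandas 2.3.3 and scipy 1.17.1.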

Additional observations from a re-analysis of the deposited data

Results flagged for a closer look

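A set of measures had values of opposite sign in different organs, and in none was the difference between organs tested, since each organ and genotype had 1 library. The masked share of distal summits was 1.85 percentage points higher in mutant than in wild-type brain and changed by −3.34 in the heart and −6.51 in the lung. The group 1 share of masked peaks changed by 9.26 percentage points in the brain, −3.55 in the heart and −5.45 in the lung. The log2 of mutant over wild-type fragments, masked minus unmasked, was −0.068 in the brain, 0.033 in the heart and −0.24 in the lung. Sharing with both other organs at equal fold enrichment, masked minus unmasked, was −7.46 percentage points in the brain, 0.375 in the heart and −13.5 in the lung. Retention of group 1 minus that of all unmasked peaks, with or without a core motif, at equal fold enrichment was 0.836 in the brain, −14.1 in the heart and −12.8 in the lung. Retention of group 2 minus that of group 1 was 8.82 in the brain, −1.66 in the heart (95% interval −9.73 to 6.54) and 9.59 in the lung. At equal fold enrichment it was −4.70 (95% interval −9.19 to −0.209), −3.86 (−12.2 to 4.53) and −0.993 (−4.83 to 2.85), negative in all 3 organs. The share of mutant peaks without a wild-type overlap, masked minus unmasked at equal fold enrichment, was 6.52 in the brain, 4.14 in the heart and −0.909 in the lung. In all but the changes in the masked share and in the group 1 share, the value of the organ whose sign differed had an interval that included 0, so no change in the opposite direction was shown there.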

How the results depend on the processing

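No paired analysis was possible because the labels gave 1 library per organ and genotype, so replicates could not be paired by number. Pairing was by organ only, in the tests of differences between genotypes over 3 organs. Over 9 mean differences and 78 settings, the direction of the mean was kept in 77. The exception was the difference in retention tied to the upstream motif in masked peaks, which came to 1.39 in place of −5.90 percentage points when masked meant at least 80% of the bases within 50 bp of the summit and unmasked at most 20%, and the cause was not tested. Of 234 values for single organs, 142 stayed within their interval, 91 moved beyond it and 1 that lay clear of 0 changed sign: the mutant minus wild-type masked share of brain, from 1.85 to −0.0458 outside group 1, an alternative added after seeing the data. With the organs left out in turn, the retention difference ranged from −23.6 to −18.5, and from −9.13 to −4.59 at equal fold enrichment. The sharing difference ranged from −32.9 to −18.6, and from −10.5 to −3.54 at equal fold enrichment. The change in masked share ranged from −4.93 to −0.748, summits minus flanks from −12.6 to −7.01, the ratio of fragments from −0.15 to −0.018 on the log2 scale, the core motif difference from 3.55 to 6.34 and the upstream motif difference from −8.39 to −0.968. With deciles of pileup in place of fold enrichment, the sharing difference was −2.78, and −3.63 in place of −13.5 in the lung. Occupancy of masked motifs was 5.18% in place of 4.64% when a region had only to overlap the motif, also added after seeing the data. At 70% identity the 3 largest groups held 2310, 417 and 374 sites in place of 3112, 1172 and 281, and they were not the same groups: 2643 of the group 1 sites, 374 of the group 2 sites and 0 of the group 3 sites were in any of them. Also added afterwards were masking by the core motif centre, masked runs of at least 100 bases, every summit line, fixed distances of the upstream motif and the splits at equal fold enrichment. In the heart, groups 1 and 2 had 129 and 121 wild-type peaks, which limits the precision of their shares there.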
